A study of Caenorhabditis elegans with 16 samples.

Results

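Wild-type N2 Caenorhabditis elegans that had been exposed to tunicamycin (TM) as embryos were compared with worms exposed to the same drug as fourth-stage (L4) larvae. The members are the 4 EMBRYO TM libraries and the 4 L4 TM libraries, chosen from the stage and treatment in the sample labels, which makes 8 of the 16 libraries of the series. Both groups received TM at 1.25 μg/ml in S Medium for 24 h at a single dose, were of wild-type genotype, came from populations synchronised by bleaching, and are described as Day 1 adults at collection. The EMBRYO TM worms were plated after the exposure and grew through the larval stages without the drug, whereas the L4 TM worms passed from L4 to adulthood during or just after it. The time since exposure therefore differs together with the stage of exposure, and these cannot be told apart in this comparison. The other 8 libraries are the stage-matched controls, EMBRYO CNT and L4 CNT, without TM, and they are used here as the background of the stage comparison. Each library was made from polyadenylated RNA of whole worms from a separate plate, so every value is an average over all tissues and over germline, sperm and any embryos held in the body.

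TM blocks the first step of N-linked glycosylation, in which the sugar chain is started on its lipid carrier in the membrane of the endoplasmic reticulum (ER). Proteins that lack their sugar chains misfold, and the unfolded protein response (UPR) of the ER, sensed in worms by IRE-1, PEK-1 and ATF-6, raises chaperones, degradation factors and lipid synthesis and slows translation. Worm larvae build a new cuticle at each moult, and the last larval stage is also when sperm form, oocytes begin to be made and the intestine starts to supply yolk.

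Values are FPKM, fragments scaled to gene length and library size, and were tested as log2(FPKM + 1) with limma on the 13373 genes that averaged at least 1 FPKM in these 8 libraries. Reads on genes, recovered from the steps of the FPKM values, numbered 13716456 to 15744453 in EMBRYO TM and 18964835 to 47193068 in L4 TM. L4 TM replicate 4 stood apart before any result: it had 47193068 reads as recovered, genes seen by a single read made up 0.702% of its detected genes, a share of 8.97% to 10.9% elsewhere (15 libraries), and it had 15377 detected genes, against 17539 to 21833. The smallest step of each library was taken as 1 read, so its read number and single-read share are uncertain if that step was not a whole read. EMBRYO TM replicate 4 stood apart in its yolk transcripts, with a summed vitellogenin level of 6496 FPKM against 16372 to 22386 FPKM in the other 3. Pearson correlations of log2(FPKM + 1) across genes were 0.951 to 0.982 within EMBRYO TM, 0.968 to 0.994 within L4 TM and 0.843 to 0.906 between the groups, a description with genes that are not independent replicates. In the deposited table the authors' mean columns head the EMBRYO groups as L1 and the L4 groups as D1. If these headings name the stage at collection, the EMBRYO groups would be first-stage larvae and not Day 1 adults, so the stage at collection is in doubt. A difference between the groups below may then be one of collection stage as well as of exposure stage, and these cannot be told apart. The adult collagen gene col-19 was at 1228, 1096, 1169 and 1149 FPKM in EMBRYO TM replicates 1 to 4 and at 936, 933, 912 and 248 FPKM in L4 TM, so that this marker of the adult epidermis was present in all 8 libraries and lowest in L4 TM replicate 4. Eggshell and egg activation genes summed to 3101 to 5827 FPKM in EMBRYO TM and 5338 to 6599 FPKM in L4 TM. Their sum was 3102 to 4246 FPKM in EMBRYO CNT and 4777 to 5834 FPKM in L4 CNT. Vitellogenins summed to 3679 to 5613 FPKM in EMBRYO CNT. The stage at collection was not tested.

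A gene is called here when its log2 fold change (log2FC, EMBRYO TM over L4 TM) exceeded 1 in size with a p under 0.05 after Benjamini-Hochberg adjustment. A gene near 0 FPKM in either group passed the filter only through the other group. Its direction was thus fixed in advance, in the lists and over all genes alike. By this rule 30.1% of the genes were called: 2925 genes (21.9% of those tested) were higher in EMBRYO TM and 1094 (8.18%) were lower. The libraries of the groups did not overlap in 4349 higher (32.5%) and 4577 lower (34.2%) genes. The adjusted p alone was passed by 4757 higher (35.6%) and 4962 lower (37.1%) genes, so the surplus of higher calls arose at the fold threshold. It also depended on the level of the genes. At a mean of at least 5 FPKM, 1321 genes were called higher and 1017 lower, so that 56.5% of the calls were higher. Beyond 3 on the log2 scale, 135 genes were higher and 3 were lower. The median log2FC over all genes was -0.03. Rescaling the values to TPM moved that median by 0.12 and gave 3379 higher and 697 lower calls, so that 82.9% of the calls were higher, against 72.8% with the values as deposited. The median was -0.38 over the genes that averaged 5 FPKM or more. Without L4 TM replicate 4 the counts were 2971 and 1069, and without EMBRYO TM replicate 4 they were 2913 and 1419.

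**Figure D1:**
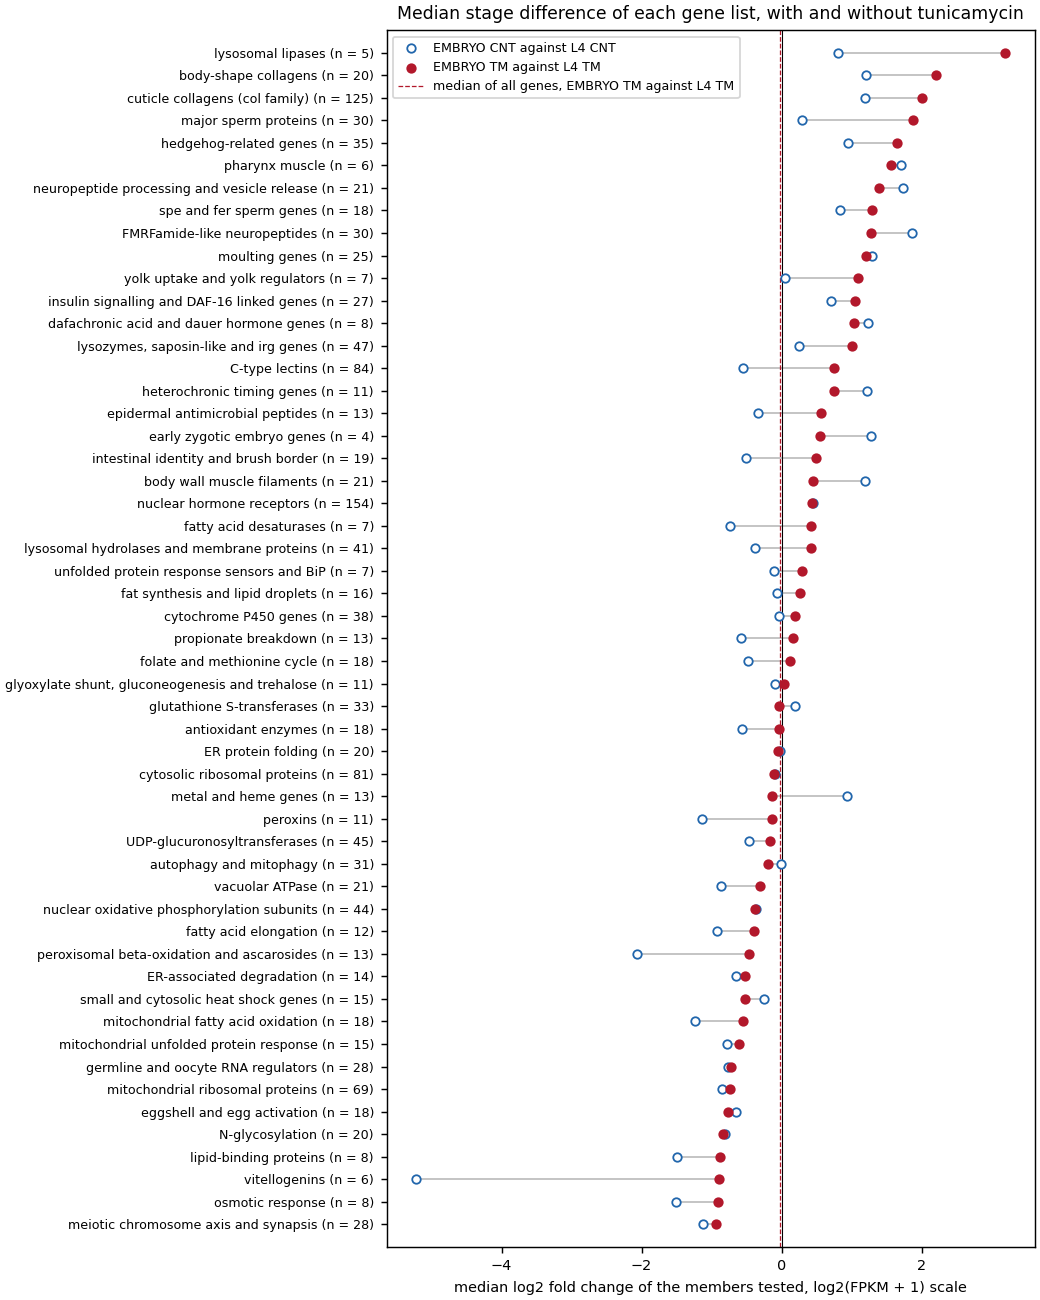
Median log2FC on the log2(FPKM + 1) scale (horizontal axis) of each of 53 gene lists (rows, with the number of members tested), for EMBRYO TM against L4 TM (filled red points) and EMBRYO CNT against L4 CNT (open blue points), and the median of all genes tested between the treated groups as a dashed line. Lysosomal lipases (3.19) and the collagen lists (2.21 and 2.01) lie farthest to the right between the treated groups, and the vitellogenins lie at -0.90 between the treated and at -5.22 between the control groups.

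The largest differences were in genes that were nearly silent in L4 TM. The metallothionein gene mtl-1 (K11G9.6, chromosome V, 6691369 to 6691863 as the deposited table gives it), whose product binds metal ions, was at 316, 281, 253 and 349.6 FPKM in EMBRYO TM and at 1.34, 1.46, 0.766 and 0 FPKM in L4 TM. The groups lay far apart with no overlap, at 299.8 ± 42.03 and 0.889 ± 0.665 FPKM (SD, 4 libraries each), and the log2FC was 7.39 (SE 0.26, adjusted p = 9.8e-08 by limma). The cuticle collagen gene col-36 (C27H5.5, chromosome II, 7167513 to 7168662) was at 163, 149, 171 and 136 FPKM in EMBRYO TM and at 0, 0, 0.0521 and 0 FPKM in L4 TM. Its whole signal in L4 TM was 1 read, which gives a ratio of 17333 with a 95% counting interval of 3110 to 684698, and its fitted log2FC of 7.26 depends on the pseudocount. Other collagen genes with the same pattern were col-43 (6.86), col-2 (6.60) and col-40 (6.44).

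Genes of innate immunity and of the hedgehog-related family made up the rest of the 10 largest increases. The C-type lectin gene clec-60 was at 259.6, 196, 209.6 and 215 FPKM in EMBRYO TM and at 2.003, 1.97, 1.59 and 0.900 FPKM in L4 TM, a log2FC of 6.42 (adjusted p = 1.28e-08 by limma). The invertebrate-type lysozyme gene ilys-3 was at 341, 285, 268 and 381 FPKM in EMBRYO TM and at 3.58, 3.56, 4.47 and 1.79 FPKM in L4 TM, a log2FC of 6.23. Both genes were lowest in L4 TM replicate 4, and every EMBRYO TM value was far above every L4 TM value. The ground-like genes grl-25 (6.26), grl-20 (6.19) and grl-23 (6.12), of the hedgehog-related family, completed the set, with grl-23 resting on 3 reads in L4 TM (ratio 3047, 95% counting interval 1042 to 14780).

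The decreases were smaller. The largest was in gpdh-1 (F47G4.3, chromosome I, 14075836 to 14078214), the glycerol-3-phosphate dehydrogenase that makes glycerol under osmotic stress. It was at 3.33, 4.59, 3.25 and 2.15 FPKM in EMBRYO TM and at 64.2, 67.3, 63.8 and 55.6 FPKM in L4 TM, with no overlap and a log2FC of -3.91 (SE 0.16, adjusted p = 2.71e-07 by limma). The proton and myo-inositol cotransporter gene hmit-1.1 was at 3.52, 4.05, 4.87 and 5.24 FPKM and at 58.8, 58.7, 58.7 and 41.6 FPKM (log2FC -3.35). The DAF-16 linked gene dod-23 was at 59.9, 50.5, 58.3 and 60.4 FPKM and at 571, 541, 517 and 691 FPKM (log2FC -3.31). In all 3 genes the lowest L4 TM library was several times above the highest EMBRYO TM library. The other 7 of the 10 largest decreases were pgph-2 (-2.94), named for likeness to phosphoglycolate phosphatase, C02F12.5 (-2.73), the SWEET-family sugar transporter gene swt-6 (-2.61), H29C22.1 (-2.46), the caenacin antimicrobial peptide gene cnc-7 (-2.39), K11D12.13 (-2.35) and C08F11.12 (-2.19).

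**Figure D2:**
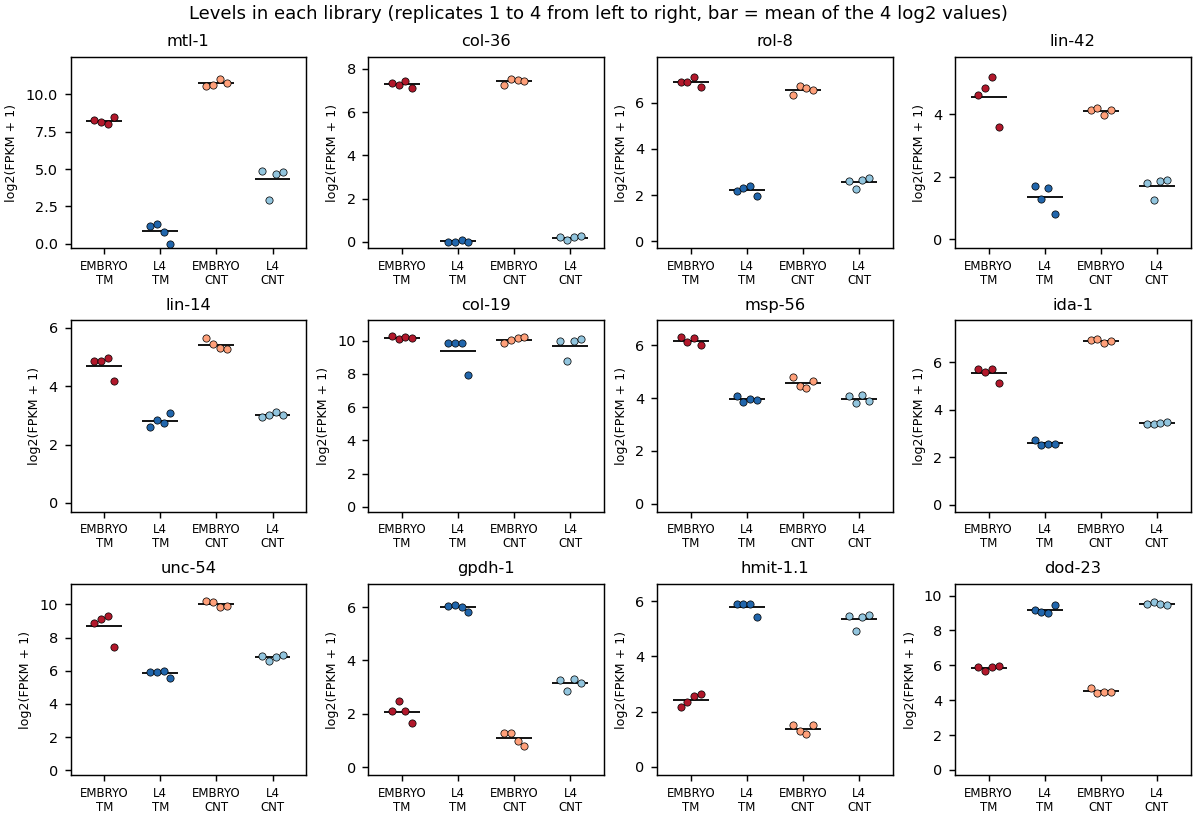
Level of 12 genes in each library as log2(FPKM + 1) (vertical axis), with replicates 1 to 4 from left to right in EMBRYO TM, L4 TM, EMBRYO CNT and L4 CNT and the mean of each group as a bar. Of the 12 genes, gpdh-1, hmit-1.1 and dod-23 were lower in EMBRYO TM than in L4 TM, and the difference of col-19 did not pass the test.

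Many cuticle genes were higher in EMBRYO TM. Of 125 col genes tested, from a family of 156, 102 were higher and none was lower past both thresholds, against 21.9% and 8.18% of all genes, and the median log2FC was 2.01. Members near 0 in L4 TM, such as col-36, passed the filter only through EMBRYO TM and could only be called higher. The absence of lower calls depended on single libraries, since 2 col genes were lower without L4 TM replicate 4 and 1 each without EMBRYO TM replicate 2 or 3. Summed over the family, col transcripts were at 23710.0 to 33838 FPKM in EMBRYO TM and at 8667 to 19048 FPKM in L4 TM, where replicate 4 was the lowest. Many col genes have near-identical copies, so a value of a single copy can include reads of another. The collagens that shape the body (dpy, rol, sqt, bli and lon genes) were higher in 19 of 20 (12 among those with a mean of at least 5 FPKM), with a median of 2.21, and their sum was 572 to 870.0 FPKM against 59.99 to 105 FPKM. The gene rol-8 was at 118, 118, 138 and 101 FPKM in EMBRYO TM and at 3.58, 3.90, 4.27 and 2.85 FPKM in L4 TM. Its 4 EMBRYO TM values were all above 100, its 4 L4 TM values all below 5, and its log2FC was 4.69 (adjusted p = 1.95e-08 by limma). Next in this list were dpy-13 (3.34), sqt-3 (3.19) and dpy-4 (3.02). The adult collagen col-19 had a log2FC of 0.80 with an adjusted p of 0.0974 by limma and did not pass the test.

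Genes of the moult and of the epidermal surface were also higher. Of 25 moulting genes tested, 14 were higher and none was lower (9 higher with a pseudocount of 5), with a median of 1.21. The protease inhibitor gene mlt-11, needed to shed the old cuticle, was at 20.7 ± 9.52 in EMBRYO TM and 0.700 ± 0.199 FPKM in L4 TM (SD, 4 libraries each), a log2FC of 3.52. The hedgehog-related gene qua-1 (2.54) and noah-2 (2.50), which codes for a protein of the outer matrix, followed. Of 35 hedgehog-related genes tested, 26 were higher and none was lower (13 higher with a pseudocount of 5), with a median of 1.65. Here too members near 0 in L4 TM, such as grl-23 and grl-9, could only be called higher. Beside the 3 grl genes above, grl-9 was at 32.4 FPKM in EMBRYO TM on average and had 2 reads in all of L4 TM (ratio 1584, 95% counting interval 438 to 13088). Without EMBRYO TM replicate 4, 1 hedgehog-related gene was lower.

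Heterochronic genes set the order of larval and adult programmes, and 5 of the 11 tested were higher in EMBRYO TM, or 2 with a pseudocount of 5. The period homologue lin-42, which cycles with the moults, was at 23.5, 27.7, 35.5 and 11.115 FPKM in EMBRYO TM and at 2.27, 1.45, 2.095 and 0.737 FPKM in L4 TM. Although replicate 4 was the lowest of both groups, the groups did not overlap, and the log2FC was 3.20 (SE 0.33, adjusted p = 3.44e-05 by limma). The transcription factor gene lin-14, which specifies first-larval fates, was at 27.9, 27.9, 29.8 and 16.8 FPKM and at 5.03, 6.19, 5.62 and 7.47 FPKM, a log2FC of 1.89. The Hunchback-like gene hbl-1 (1.68), the larva-to-adult switch gene lin-29 (1.21) and the microRNA Argonaute gene alg-1 (1.004) were also higher, but alg-1 fell below the fold threshold when any of EMBRYO TM replicates 1, 2 and 3 (0.96, 0.95 and 0.90) or L4 TM replicates 1 and 2 (0.95 and 0.96) was left out. The others did not pass both thresholds: the lin-29 cofactor gene mab-10 was at 0.75, lin-46 at 0.72, the second Argonaute gene alg-2 at 0.68, lin-66 at 0.67, the RNA-binding protein gene lin-28 at -0.53 and lin-41, which also acts in oocytes, at -0.06. In EMBRYO CNT against L4 CNT, lin-14 and lin-42 were higher by 2.39 and 2.41, so the higher level of both was present without TM.

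Transcripts of the major sperm proteins were higher in EMBRYO TM. Of 30 major sperm protein genes tested, which code for the cytoskeletal and signalling protein of nematode sperm, 29 were higher and none was lower, with a median of 1.88. The gene msp-56 was at 77.8, 68.4, 76.3 and 63.0 FPKM in EMBRYO TM and at 15.8, 13.5, 14.6 and 14.1 FPKM in L4 TM, with no overlap and a log2FC of 2.22 (adjusted p = 3.19e-07 by limma). Next were msp-10 (2.14), msp-77 (2.13) and msp-57 (2.12), and the values of single copies are uncertain because the msp genes are nearly identical. The summed msp level was 2361 to 2619.8 FPKM in EMBRYO TM, 618 to 807 FPKM in L4 TM, 730.4 to 838 FPKM in EMBRYO CNT and 587 to 711 FPKM in L4 CNT, so EMBRYO TM stood above the other 3 groups. Of 18 spe and fer genes tested, which act in sperm formation and fertilisation, 11 were higher and none was lower, with a median of 1.3. When only genes averaging 5 FPKM or more were tested, 2 were higher and the median turned to -0.49, and by the adjusted p alone 13 were higher and 4 were lower. With a pseudocount of 5, 2 were higher. The largest were spe-46 (2.23), the myosin gene spe-15 (1.89), the tyrosine kinase gene spe-8 (1.69) and the presenilin-like gene spe-4 (1.64). As these are whole worms, fewer cells of a type and less RNA per cell cannot be told apart here or in any list below.

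Part of the meiotic genes were lower in EMBRYO TM, while few oocyte and eggshell genes were called. Of 28 genes of the meiotic chromosome axis and synapsis, 12 were lower and none was higher, against 8.18% of all genes lower, and the median was -0.94. The lower count was 7 with a pseudocount of 5. The gene him-8, whose product pairs the X chromosomes, was at 27.98, 24.5, 25.9 and 40.3 FPKM in EMBRYO TM and at 68.7, 68.02, 68.2 and 93.3 FPKM in L4 TM, with replicate 4 the highest of each group, no overlap and a log2FC of -1.31. Close to it were the gene of the meiotic break enzyme, spo-11 (-1.298), the checkpoint ATPase gene pch-2 (-1.25) and the synaptonemal complex gene syp-2 (-1.23). The summed level of the list was 690.5 to 813 FPKM in EMBRYO TM and 1407 to 1540.4 FPKM in L4 TM. Of 28 RNA regulators of germline and oocyte, 3 were lower, gld-3 (-1.11), the helicase gene cgh-1 (-1.04) and spn-4 (-1.03), a share near the 8.18% of all genes, with a median of -0.72. That count was 6 without EMBRYO TM replicate 3 and 1 without EMBRYO TM replicate 4, where cgh-1 (-0.89) and spn-4 (-0.96) fell within the fold threshold, and cgh-1 did so without L4 TM replicate 4 as well (-0.98). With TPM none of the 28 was called, and with voom 1 was. Of 18 eggshell and egg activation genes, 3 were lower, the glucosamine-phosphate acetyltransferase gene gna-2 (-1.31), the permeability barrier gene perm-1 (-1.16) and the chondroitin proteoglycan gene cpg-3 (-1.11), with a median of -0.77. The 1 higher gene of that list, spe-11 (2.37), codes for a sperm-supplied protein. Of 20 genes first transcribed in the early embryo, 4 passed the filter and 2 were higher, though none with a pseudocount of 5, sdz-28 (1.44) and the T-box gene tbx-11 (1.13), whose call was lost without EMBRYO TM replicate 3 (0.99) or L4 TM replicate 1 (0.98). The summed level of those 20 was 15.2 to 18.9 FPKM in EMBRYO TM and 8.89 to 10.7 FPKM in L4 TM, and 5 and 3 of them were at 0 in all libraries of the respective group. The part of germline, sperm and embryo content in the differences of other lists was not tested.

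Yolk transcripts were lower in EMBRYO TM for some vitellogenin genes and not for others. Vitellogenins are made by the adult intestine and carried to oocytes. Of 6 vitellogenin genes, 3 were lower in EMBRYO TM and none was higher, against 8.18% and 21.9% of all genes, with a median of -0.90. Their sum was 16372 to 22386 FPKM in EMBRYO TM replicates 1 to 3 and 6496 FPKM in replicate 4. It was 13948 to 17790 FPKM in L4 TM, so the sums overlapped and were below L4 TM in replicate 4 alone. The gene vit-4 was at 428, 496, 605 and 219.9 FPKM in EMBRYO TM and at 1178, 1095, 1195 and 1016 FPKM in L4 TM, with no overlap and a log2FC of -1.45 (SE 0.27, adjusted p = 0.00107 by limma). The gene vit-2 was at 7119, 8444, 9724 and 2769 FPKM and at 4894, 4585, 5306 and 3859 FPKM. For vit-2, EMBRYO TM replicates 1 to 3 lay above all L4 TM libraries and replicate 4 lay below them, so the groups overlapped and the difference of 0.45 did not pass the test (adjusted p = 0.29 by limma). The other differences were -1.38 in vit-3 and -1.02 in vit-1, both lower, and -0.78 in vit-5 and 0.13 in vit-6, which did not pass both thresholds. The vit-1 call was lost without EMBRYO TM replicate 4 (-0.67) or L4 TM replicate 3 (-0.98). The vit genes are similar in sequence and may share reads. Among genes that regulate or take up yolk, 4 of 7 were higher, the lipoprotein receptor gene lrp-2 (1.71), the intestinal GATA factor gene elt-2 (1.32), pqm-1 (1.21) and the homeodomain gene unc-62 (1.09, and 0.98 without EMBRYO TM replicate 3). The yolk receptor gene rme-2 (-0.56), ceh-60 (0.81) and the kinase gene sgk-1 (0.18) did not pass both thresholds.

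**Figure D3:**
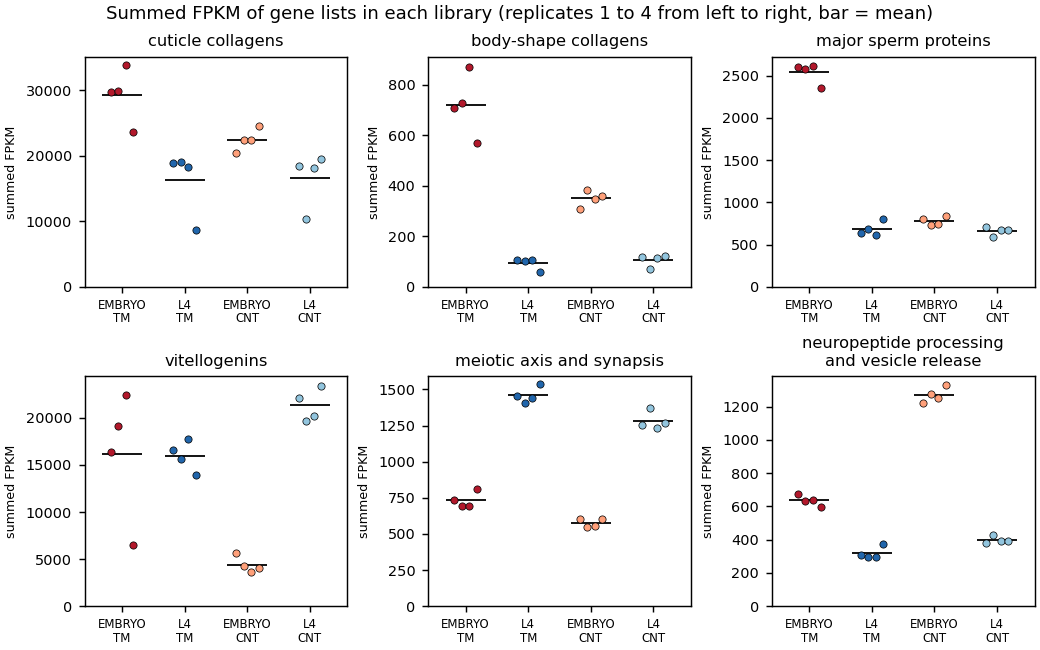
Summed FPKM of 6 gene lists in each library (vertical axis), with replicates 1 to 4 from left to right in EMBRYO TM, L4 TM, EMBRYO CNT and L4 CNT and the mean of each group as a bar. The summed major sperm protein level was 2361 to 2619.8 FPKM in EMBRYO TM and did not exceed 838 FPKM in any library of the other groups, and the vitellogenin sum of EMBRYO TM replicate 4 (6496 FPKM) lay apart from the other 3.

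No UPR sensor gene passed the fold threshold between the treated groups, and part of the glycosylation machinery was lower in EMBRYO TM. None of the 7 genes of the UPR sensors and BiP was called in either direction, where 21.9% and 8.18% of all genes were, although 5 passed the adjusted p alone. The BiP gene hsp-4, the usual readout of ER stress in worms, was at 148, 144, 151 and 133 FPKM in EMBRYO TM and at 204, 191, 202 and 171 FPKM in L4 TM. Each L4 TM library was above each EMBRYO TM library, and the log2FC was -0.41 (SE 0.09, adjusted p = 0.00274 by limma). Without TM it was -0.79, with 75.1 ± 8.11 in EMBRYO CNT and 129.7 ± 4.13 FPKM in L4 CNT (SD, 4 libraries each). The second BiP gene hsp-3 was at 0.47, the sensor genes ire-1, pek-1 and atf-6 at -0.66, 0.29 and 0.89, and the transcription factor genes xbp-1 and atf-4 at 0.11 and 0.65. The TPM and voom alternatives each called 1 of the 7 higher.

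Of 20 ER folding genes tested, 1 was higher, the peptidyl-prolyl isomerase gene fkb-4 (1.085), and the call was lost without EMBRYO TM replicate 4 (0.98) or L4 TM replicate 4 (0.90). The median of the list was -0.05 and turned positive with TPM (0.08) or voom (0.04). Of 14 genes listed for ER-associated degradation, 1 was lower, npl-4.1 (-1.23), a cofactor of the segregase CDC-48, whose call was lost without L4 TM replicate 2 (-0.97), and 2 were lower without EMBRYO TM replicate 1 or 4 or L4 TM replicate 4. The 1 higher member, cpr-1, is a cathepsin B protease and is described with the lysosome below. Of 20 N-glycosylation genes, 6 were lower and none was higher, with a median of -0.84. The gene dad-1, a subunit of the oligosaccharyltransferase that attaches the sugar chain, was at 161, 137, 136 and 181 FPKM in EMBRYO TM and at 329, 353, 336 and 478 FPKM in L4 TM. Replicate 4 was the highest of both groups, there was no overlap, and the log2FC was -1.27 (adjusted p = 6.5e-05 by limma). The dolichol-phosphate mannosyltransferase gene dpm-1 (-1.23), the mannosyltransferase gene algn-2 (-1.22) and the glucosyltransferase gene algn-6 (-1.09, and -0.94 without L4 TM replicate 4) were lower as well. The worm counterpart of the enzyme that TM blocks, algn-7, chosen after its values were seen, was at 15.99 ± 2.59 in EMBRYO TM and 26.6 ± 2.41 FPKM in L4 TM (SD, 4 libraries each), a difference of -0.71 within the fold threshold. The same list had a median of -0.81 in the control groups, and none of its 20 genes passed both thresholds for a difference between the treated and control contrasts. With TPM or a pseudocount of 5, 3 of the 20 were lower.

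In the mitochondrial UPR list, 2 of 15 genes were lower, the mitochondrial DNA-binding protein gene hmg-5 (-1.28) and the ubiquitin-like gene ubl-5 (-1.11, and -0.96 without EMBRYO TM replicate 3). The homeodomain gene dve-1 was higher (1.03), but not without EMBRYO TM replicate 2 (0.96) or 3 (0.995). Among 15 heat shock genes tested, the small heat shock genes hsp-12.6 (4.68), hsp-12.3 (2.69) and hsp-12.2 (1.06) were higher and the chaperone gene hsp-90 (-1.05) was lower. The hsp-12.2 call was lost without EMBRYO TM replicate 1 (0.99) or L4 TM replicate 3 (0.92), and the hsp-90 call without EMBRYO TM replicate 4 (-0.96), while 2 heat shock genes were lower without EMBRYO TM replicate 2 or 3. Of 18 antioxidant genes tested, the methionine sulfoxide reductase gene msra-1 (2.21) and the superoxide dismutase gene sod-3 (1.07, and 0.96 without L4 TM replicate 1) were higher and the glutathione synthetase gene gss-1 (-1.07) was lower. Without EMBRYO TM replicate 1 or 4, 2 antioxidant genes were lower. Of all genes 21.9% were called higher and 8.18% lower. The higher shares of the mitochondrial UPR, heat shock and antioxidant lists were close to the former or below it, and their lower shares were near the latter. In both hsp-12.6 and sod-3 the stage difference was larger in the controls, at 6.81 and 3.44.

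The lysosomal list was led by a few proteases and sphingolipid enzymes. Of 41 lysosomal hydrolase and membrane protein genes tested, 11 were higher and 1 was lower, with a median of 0.42, against 21.9% of all genes higher. The share of higher genes was thus close to that of all genes. The summed level was 25746 to 42911 FPKM in EMBRYO TM and 10159.8 to 11800.3 FPKM in L4 TM. The cathepsin B gene cpr-1 (C52E4.1, chromosome V, 11975515 to 11976759), a cysteine protease gene, was at 3873, 3579.9, 3949.7 and 2764 FPKM in EMBRYO TM and at 246, 249.5, 249.9 and 149 FPKM in L4 TM. Even the lowest EMBRYO TM library was far above every L4 TM library, and the log2FC was 3.999 (SE 0.20, adjusted p = 7.25e-07 by limma). The related gene cpr-4 was at 1926, 1819, 2016 and 1445 FPKM and at 152, 149.6, 157 and 113 FPKM, a log2FC of 3.65. The acid ceramidase gene asah-1 was at 802, 668, 748 and 632 FPKM and at 100.3, 102, 106 and 95.8 FPKM, a log2FC of 2.80. None of these 3 genes had overlapping groups. Larger still were asm-3, an acid sphingomyelinase gene (4.75), and cpr-2 (4.42), which was at 21.6 ± 2.50 in EMBRYO TM and 0.0555 ± 0.0795 FPKM in L4 TM (SD, 4 libraries each). The 1 lower gene was cpr-8 (-1.26), and 2 were lower without any 1 of L4 TM replicates 1, 2 and 3.

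Lysosomal acid lipases, which free fatty acids from stored fat, showed the largest median of the lists, 3.19, over 5 genes tested of 8. The gene lipl-2 was at 506, 397, 371 and 520.0 FPKM in EMBRYO TM and at 27.2, 25.9, 25.5 and 22.01 FPKM in L4 TM (log2FC 4.09, adjusted p = 5.5e-08 by limma). The gene lipl-1 (F54F3.3, chromosome V, 12920007 to 12922116) was at 100.3, 91.4, 87.6 and 108 FPKM and at 9.11, 10.3, 8.63 and 10.7 FPKM (log2FC 3.19). Both were separated without overlap, and lipl-3 was higher by 3.77 with an average of 0.314 FPKM in L4 TM. The other members, lipl-5 (0.27) and lipl-7 (0.24), did not pass the test. Subunits of the vacuolar ATPase, which acidifies the lysosome, had none higher and 1 of 21 lower, vha-18 (-1.29). Its intestinal subunit gene vha-6 was at -0.09 and did not pass the test. Of 31 autophagy and mitophagy genes, 6 were higher, led by hlh-30 (2.16), the worm TFEB that drives autophagy genes, the adaptor gene epg-2 (1.75), atg-2 (1.74) and the p62 homologue sqst-1 (1.62). The mitophagy receptor gene fndc-1 was lower (-1.13), but not without L4 TM replicate 4 (-0.995), and 2 autophagy genes were lower without EMBRYO TM replicate 4 or L4 TM replicate 1. The share called higher was below the 21.9% of all genes, the median of the list was -0.19, and by the adjusted p alone 9 members were higher and 15 were lower.

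Enzymes of fat breakdown and remodelling went both ways. In peroxisomal beta-oxidation, which also shortens the side chains of ascaroside pheromones, 1 of 13 genes was higher and 3 were lower, with a median of -0.46. Of all genes 21.9% were higher and 8.18% were lower. The enoyl-CoA hydratase gene ech-9 was at 53.0, 47.7, 42.7 and 72.2 FPKM in EMBRYO TM and at 3.14, 3.13, 3.15 and 4.13 FPKM in L4 TM, with no overlap and a log2FC of 3.62. The acyl-CoA oxidase gene acox-1.3 (-1.21), the thiolase gene daf-22 (-1.03) and the hydratase gene maoc-1 (-1.03) were lower, and none of the 3 was called with a pseudocount of 5. The last pair were called only narrowly, since daf-22 (-0.99 and -0.99) and maoc-1 (-0.96 and -0.89) fell within the threshold without EMBRYO TM replicate 2 or 3, and maoc-1 also without L4 TM replicate 4 (-0.91). The oxidase gene acox-1.5 was at 0.48, inside the fold threshold. Of 11 peroxin genes, 1 was lower, prx-11 (-1.49), a share near that of all genes, and 2 were without EMBRYO TM replicate 4 or L4 TM replicate 3.

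Of 7 fatty acid desaturase genes, fat-6 (1.16), which makes oleate, and fat-3 (1.06), which acts on polyunsaturated chains, were higher. The fat-3 call was lost without EMBRYO TM replicate 1 (0.998) or 4 (0.96). The others lay within the fold threshold, with fat-2 at 0.58, fat-4 at 0.42, fat-7 at 0.20, fat-5 at -0.33 and fat-1 at -0.74. Of 12 elongation genes, elo-7 (1.94), elo-8 (1.86) and elo-4 (1.58) were higher and elo-5 (-1.35) and elo-6 (-1.04), which make branched-chain fatty acids, were lower. None of the 3 higher calls was made with a pseudocount of 5, and none of the 3 genes was tested at a mean of at least 5 FPKM. The elo-6 call was lost without EMBRYO TM replicate 2 (-0.97) or 3 (-0.92), 1 of the 12 was lower with TPM or voom, and elo-2 was at -0.76. In fat synthesis and storage, the acetyl-CoA carboxylase gene pod-2 (1.15, and 0.94 without EMBRYO TM replicate 3), the fatty acid synthase gene fasn-1 (1.15) and the nuclear receptor gene nhr-80 (1.45) were higher and the lipid droplet gene lid-1 (-1.08) was lower, of 16 tested. Without EMBRYO TM replicate 4, 5 genes of that list were higher. The shares called higher in the desaturase, elongation and fat synthesis lists were close to the 21.9% of all genes, where 8.18% were lower.

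Intracellular lipid-binding proteins were lower or did not pass the test. Of 8 lbp genes tested, lbp-4 (-1.45), lbp-3 (-1.38), lbp-2 (-1.18) and lbp-9 (-1.01) were lower, against 8.18% of all genes, with a median of -0.89. The lbp-9 call was lost without EMBRYO TM replicate 1 (-0.99), EMBRYO TM replicate 2 (-0.97) or L4 TM replicate 2 (-0.99). The remaining members were lbp-6 (-0.76), lbp-1 (-0.43), lbp-5 (-0.28) and lbp-7 (-0.05). Of 18 mitochondrial fatty acid oxidation genes tested, the acyl-CoA dehydrogenase gene acdh-8 (1.88) and the acyl-CoA synthetase gene acs-2 (1.87) were higher, a share below the 21.9% of all genes. The dehydrogenase gene acdh-3 was lower (-1.01), but not without EMBRYO TM replicate 2 (-0.96), EMBRYO TM replicate 3 (-0.95) or L4 TM replicate 2 (-0.999).

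Among genes of propionate breakdown, 3 of 13 were higher, a share close to the 21.9% of all genes. The largest was acdh-1 (C55B7.4, chromosome I, 6497438 to 6499316), the acyl-CoA dehydrogenase of the shunt that breaks down propionate when vitamin B12 is low. It was at 326, 303, 293 and 374 FPKM in EMBRYO TM and at 34.8, 31.1, 33.4 and 38.9 FPKM in L4 TM. Each EMBRYO TM library was several times above each L4 TM library, and the log2FC was 3.19 (SE 0.11, adjusted p = 7.07e-08 by limma). The later shunt enzyme genes hphd-1 (1.43) and alh-8 (1.48) were higher too, and without EMBRYO TM replicate 4 another gene of the list was lower. Of 18 folate and methionine cycle genes, 3 were higher, the S-adenosylmethionine synthetase gene sams-5 (2.22), the phosphoethanolamine methyltransferase gene pmt-1 (2.18) and the cystathionine beta-synthase gene cbs-2 (1.93), and none was lower. Of 11 genes of the glyoxylate shunt, gluconeogenesis and trehalose, the trehalose-phosphate synthase gene tps-1 was higher (1.23), but not with a pseudocount of 5. The shares called higher in these last lists were below that of all genes. In the osmotic response, 3 of 8 genes tested were lower, gpdh-1 and hmit-1.1 described above and the aquaporin gene aqp-8 (-1.56). The paralogues gpdh-2 (-0.81), hmit-1.2 (-0.06) and hmit-1.3 (0.39), the aquaporin gene aqp-1 (-0.14) and the antimicrobial peptide gene nlp-29 (-0.997, adjusted p = 0.0789 by limma) did not pass both thresholds.

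Detoxification families had calls in both directions, where 21.9% of all genes were called higher and 8.18% lower. The higher shares of the UDP-glucuronosyltransferase and glutathione S-transferase lists were below that of all genes, and their lower shares were close to it. The higher share of the cytochrome P450 list was close to that of all genes and its lower share above it. Of 38 cytochrome P450 genes tested, 9 were higher, with cyp-34A9 (3.37) and cyp-13A5 (2.38) the largest, and 7 were lower, with cyp-25A1 (-2.06) and cyp-29A2 (-1.64) the largest. Of 45 UDP-glucuronosyltransferase genes tested, which conjugate small molecules, 5 were higher and 3 were lower. The gene ugt-18 was at 47.6, 41.4, 38.5 and 60.04 FPKM in EMBRYO TM and at 2.51, 1.89, 2.27 and 3.13 FPKM in L4 TM, with no overlap and a log2FC of 3.79. The next were ugt-52 (1.55) and ugt-54 (1.51), and ugt-22 (-1.38) and ugt-37 (-1.22) were among the lower genes. Of 33 glutathione S-transferase genes tested, 4 were higher, including gst-15 (2.0997) and gst-35 (1.84), and 3 were lower, gstk-1 (-1.46), gst-4 (-1.41) and gst-28 (-1.09, and -0.94 without EMBRYO TM replicate 3). Without EMBRYO TM replicate 4 or L4 TM replicate 4, 2 were higher. With a pseudocount of 5 the higher and lower counts were 1 and 1 in the gst list and 1 and 1 in the ugt list, and 5 P450 genes were higher. The median of the gst list was -0.03 and changed sign with TPM (0.09) and voom (0.06).

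In metal and heme handling, the second metallothionein gene mtl-2 (4.92) and the ferritin gene ftn-1 (4.003), whose product stores iron, were higher beside mtl-1, of 13 genes tested. In this list 3 genes were higher and 3 lower, where 21.9% and 8.18% of all genes were. The higher share was thus close to that of all genes. The gene mtl-2 was at 137 ± 4.19 in EMBRYO TM and 3.59 ± 0.372 FPKM in L4 TM, and ftn-1 at 43.8 ± 8.15 and 1.78 ± 0.378 FPKM (SD, 4 libraries each). The heme-responsive genes hrg-7 (-1.403), hrg-3 (-1.36) and hrg-4 (-1.14) were lower, of which the last pair were chosen after their values were seen and hrg-4 was within the threshold without EMBRYO TM replicate 3 (-0.94). The flavin monooxygenase gene fmo-2, chosen after its values were seen, was at 1.80, 1.21, 1.06 and 1.78 FPKM in EMBRYO TM and at 6.15, 6.58, 5.52 and 7.33 FPKM in L4 TM, with no overlap and a log2FC of -1.59 (adjusted p = 1.68e-05 by limma).

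Among innate immunity genes, C-type lectins and lysozyme or saposin-like genes were called higher more often than lower in EMBRYO TM, and the epidermal peptides did not keep a direction. Of 84 C-type lectin genes tested, from a family of 234, 39 were higher and 9 were lower, against 21.9% and 8.18% of all genes, with a median of 0.75. Members near 0 in L4 TM passed the filter only through EMBRYO TM, so they could only be called higher. In the family, 56 members were at 0 in all L4 TM libraries and 29 in all EMBRYO TM libraries. The higher count was 19 with a pseudocount of 5 and 21 at a mean of at least 5 FPKM. Beside clec-60, the largest were clec-76 (5.15), clec-169 (4.79) and clec-47 (3.98), with L4 TM averages of 0.0622, 0.235 and 0.161 FPKM, and the largest lower genes were clec-222 (-2.12), clec-54 (-1.58) and clec-97 (-1.54). Of 47 lysozyme, saposin-like and irg genes tested, 24 were higher and 2 were lower, lys-10 (-1.93) and spp-17 (-1.88), with a median of 1.01. The saposin-like gene spp-21, of a family of membrane-active antimicrobial peptides, had 381 reads in EMBRYO TM and none in L4 TM. At a floor of 3 reads over the group this gives a ratio of 221. The ratio rests on the recovered depth of L4 TM, which is uncertain for replicate 4. Other saposin-like genes were spp-2 (3.45) and spp-1 (3.20), and the former was at 730.4 ± 226 in EMBRYO TM and 65.9 ± 18.2 FPKM in L4 TM (SD, 4 libraries each). Among 13 epidermal antimicrobial peptide genes tested, nlp-34 (1.90), nlp-27 (1.45), nlp-24 (1.41) and 1 more were higher and cnc-7 was lower. This list depended on L4 TM replicate 4, without which 2 were higher, nlp-24 not among them (0.95), and 3 were lower, and 2 were lower without EMBRYO TM replicate 1 or 4. Without replicate 4 of both groups 1 was higher and 4 were lower, and the median turned from 0.56 to -0.04.

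Transcripts of neurons were higher in EMBRYO TM. Of 30 FMRFamide-like neuropeptide genes tested, 20 were higher (9 with a pseudocount of 5 and 13 at a mean of at least 5 FPKM), with a median of 1.28, led by flp-15 (2.75), flp-16 (2.47), flp-21 (2.44) and flp-33 (2.39). The 1 lower gene, flp-6 (-1.004), was within the fold threshold when any of EMBRYO TM replicates 2 and 3 (-0.89 and -0.99) or L4 TM replicates 1, 2 and 3 (-0.92, -0.98 and -0.94) was left out. Of 21 genes of neuropeptide processing and vesicle release, 17 were higher and none was lower, with a median of 1.39. That count was 7 with a pseudocount of 5 and 10 at a mean of at least 5 FPKM. The dense-core vesicle gene ida-1 was at 51.2, 48.01, 52.1 and 34.5 FPKM in EMBRYO TM and at 5.53, 4.74, 4.95 and 4.83 FPKM in L4 TM, with no overlap and a log2FC of 2.96 (adjusted p = 4.61e-07 by limma). The proprotein convertase gene egl-3 (2.70) and the amidation enzyme genes pghm-1 (2.50) and pgal-1 (2.16) were next. The summed level of the 24 members of that list was 595 to 676 FPKM in EMBRYO TM and 296 to 375 FPKM in L4 TM.

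Muscle and gut transcripts were higher in part. Of 21 body wall muscle filament genes, 9 were higher and none was lower, against 21.9% and 8.18% of all genes, with a median of 0.45. The myosin heavy chain gene unc-54 was at 476, 562, 638 and 168 FPKM in EMBRYO TM and at 60.004, 58.7, 61.1 and 46.2 FPKM in L4 TM, where replicate 4 was the lowest of each group and the groups did not overlap. Its log2FC was 2.85, and the twitchin gene unc-22 (2.81), the second myosin gene myo-3 (2.56) and the troponin T gene tnt-3 (2.38) followed. Of 6 pharynx muscle genes tested, the pharyngeal myosin genes myo-2 (1.88) and myo-1 (1.68), the pharynx selector gene pha-4 (1.73) and the troponin C gene tnc-2 (1.45) were higher, and the myosin gene myo-5 (0.55) and the troponin I gene tni-4 (0.09) did not pass both thresholds. These pharynx genes had low FPKM. None was called with a pseudocount of 5, and the higher genes were not tested at a mean of at least 5 FPKM. Of 19 intestinal genes, 6 were higher, including the intermediate filament gene ifc-1 (2.24), the transporter gene pgp-1 (1.73) and elt-2. That share was not far above the 21.9% of all genes. The intestinal acid phosphatase gene pho-1 was lower (-1.31), and the median was 0.49. With a pseudocount of 5, 3 intestinal genes were higher. The summed levels were 4124 to 5374 FPKM in EMBRYO TM and 3796 to 4375 FPKM in L4 TM for body wall muscle, 37.99 to 40.7 and 17.4 to 21.1 FPKM for pharynx, and 1191 to 1624 and 1154 to 1348 FPKM for intestine, and no member of these 3 lists was at 0 in all 4 libraries of either group. The part of tissue proportions in the other differences was not tested.

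Genes of translation and respiration differed by less than the fold threshold in most cases. Of 81 cytosolic ribosomal protein genes, 2 were higher, rpl-25.1 (1.55) and rpl-42 (1.38), and rpl-41.1 was lower (-1.18). The higher count was 1 without any 1 of the 4 EMBRYO TM libraries, the lower count was 2 without EMBRYO TM replicate 4, and the median was -0.11, or 0.03 with TPM. Of 69 mitochondrial ribosomal protein genes, 9 were lower and none was higher, with mrpl-51 (-1.29) and mrps-15 (-1.27) among the largest and a median of -0.74, and 18 were lower without EMBRYO TM replicate 4. Of 44 nuclear genes of oxidative phosphorylation, 2 were lower, the succinate dehydrogenase gene sdha-2 (-1.18) and the ATP synthase gene asb-1 (-1.18), and 4 were without EMBRYO TM replicate 4 or L4 TM replicate 4. The median of that list was -0.38.

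Insulin-linked and hormonal genes were set against the 21.9% of all genes called higher and the 72.8% of all calls that were higher. Of 27 genes of insulin signalling or linked to the FOXO factor DAF-16, 14 were higher, led by dod-3 (5.52), pud-4 (3.85) and the linker histone gene hil-1 (2.79), and 1 was lower, dod-23, and 9 were higher with a pseudocount of 5. Of 8 genes of dafachronic acid and dauer hormone signalling tested, 5 were higher, among them the corepressor gene din-1 (1.68), daf-5 (1.24), the nuclear receptor gene daf-12 (1.17) and the sterol transport gene ncr-1 (1.05), and none was lower, and 2 were higher with a pseudocount of 5. Of 154 nuclear hormone receptor genes tested, from a family of 269, 25 were higher, with nhr-99 (2.57) and nhr-88 (2.21) the largest, and 1 was lower, nhr-12 (-1.16), with a median of 0.44. Their share called higher was below that of all genes, and the higher count was 7 with a pseudocount of 5, 39 with TPM and 53 with voom.

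The stage difference without TM was then set beside the one with it. Between EMBRYO CNT and L4 CNT, libraries that share none with the treated comparison, 3713 of 14221 genes were higher (26.1%) and 2060 were lower (14.5%), or 4455 and 1334 with TPM and 5052 and 1363 with voom on the recovered reads. By the adjusted p alone 43.2% were higher and 40.1% lower. At a mean of at least 5 FPKM, 1649 genes were called higher and 1849 lower. L4 CNT replicate 2 lay apart in some summed levels, in the direction of L4 TM replicate 4. Its col sum was 10436 FPKM against 18213.5 to 19501 FPKM in the rest of its group, and its body-shape collagen sum 70.3 against 116 to 122 FPKM. Its epidermal peptide sum was 131 against 322 to 351 FPKM and its peroxin sum 442 against 339 to 349 FPKM. Without this library the control counts were 3795 and 1995, and the cause was not tested. Of the 12930 genes tested in both comparisons, the log2FCs had a Pearson correlation of 0.82 across genes, a description over genes that share libraries and depth within each comparison. Of 2751 genes called higher in EMBRYO TM and tested in both, 2114 (76.8%) were higher in EMBRYO CNT as well, 595 were not called and 42 were lower. Of 1082 called lower, 855 (79.0%) were lower in EMBRYO CNT, 225 were not called and 2 were higher. Genes such as col-36 (7.26 with TM and 7.22 without), mtl-1 (7.39 and 6.40), lin-14 (1.89 and 2.39) and him-8 (-1.31 and -1.43) thus differed between the stages in both settings.

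**Figure D4:**
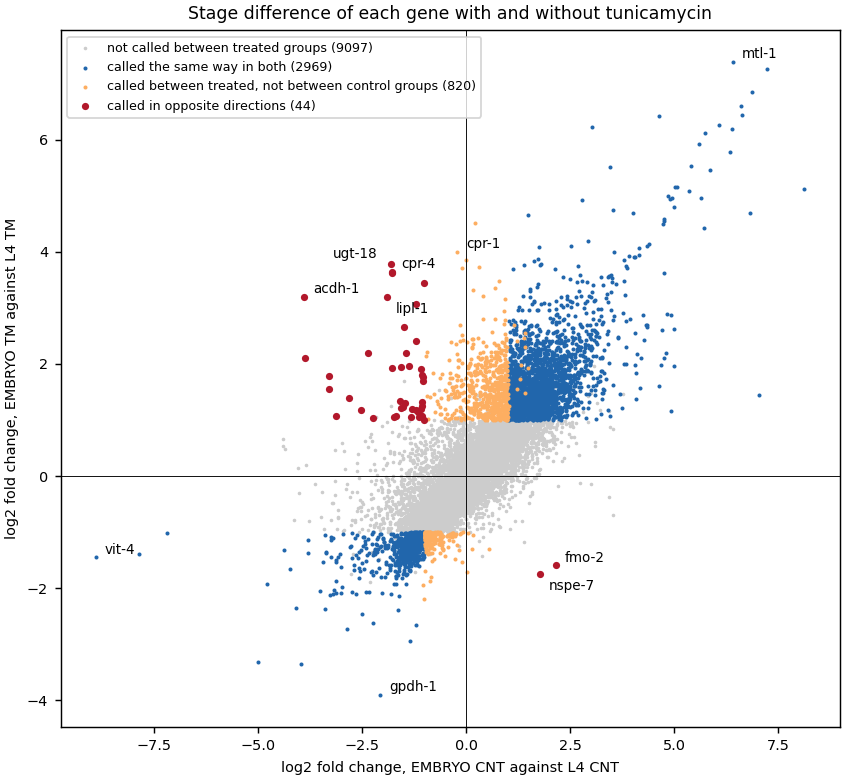
Log2 fold change of each gene tested in both comparisons, EMBRYO CNT against L4 CNT (horizontal axis) and EMBRYO TM against L4 TM (vertical axis), both on the log2(FPKM + 1) scale, coloured by the calls. The 2114 genes called higher and the 855 called lower in both lie along the diagonal, and 42 genes at the upper left and 2 at the lower right were called in opposite directions.

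The difference between the stage differences was itself tested in a model of all 16 libraries. It was positive past both thresholds in 901 of 13856 genes (6.5%) and negative in 585 (4.22%). In the gene lists, it was positive in all 6 vitellogenin genes, in 27 of 29 major sperm protein genes, in 11 of 13 genes of peroxisomal beta-oxidation, in 23 of 41 lysosomal genes (and negative in 1), in 13 of 20 body-shape collagens, in 38 of 85 C-type lectins (and negative in 4) and in 48 of 125 col genes (and negative in 2). It was not called in any of 28 meiotic genes, 20 N-glycosylation genes, 7 UPR sensor and BiP genes, 21 neuropeptide processing genes or 69 mitochondrial ribosomal protein genes. A call that was missed does not show that the stage differences were equal.

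The vitellogenins shifted between the settings. In EMBRYO CNT vit-4 was at 2.05, 1.47, 0.972 and 1.22 FPKM and in L4 CNT at 1176, 1085, 1013 and 1276 FPKM, so that the stage difference of -8.89 without TM became -1.45 with it, and the difference between them was 7.44 (adjusted p = 1.33e-10 by limma). The other 5 were 6.48 in vit-3, 6.17 in vit-1, 3.04 in vit-6, 2.47 in vit-5 and 1.66 in vit-2. Among the sperm genes, msp-56 was at 22.9 ± 3.14 in EMBRYO CNT and 14.7 ± 1.59 FPKM in L4 CNT (SD, 4 libraries each), and its stage difference was 2.22 with TM and 0.60 without.

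Genes called in opposite directions included enzymes of lipid and xenobiotic metabolism. The gene acdh-1 was higher in EMBRYO TM than in L4 TM but lower in EMBRYO CNT, at 0.565, 0.584, 0.739 and 0.645 FPKM, than in L4 CNT, at 22.4, 24.8, 22.6 and 23.4 FPKM. All 16 libraries followed these orders without overlap within a stage pair, and the difference of 7.09 had an adjusted p of 2.27e-15 by limma. The lipase gene lipl-1 was at 8.92, 8.03, 8.31 and 8.07 FPKM in EMBRYO CNT and at 31.8, 36.1, 34.2 and 32.8 FPKM in L4 CNT, which gives -1.90 without TM and 3.19 with it. The same reversal was found in cpr-4 (-1.77 without TM and 3.65 with it), ugt-18 (-1.80 and 3.79), ech-9 (-1.79 and 3.62) and spp-2 (-1.001 and 3.45). The collagen genes col-7 (-1.37 and 1.96) and col-62 (-1.07 and 1.91), chosen after their values were seen, reversed as well. The 2 genes that went the other way were fmo-2, at 48.9, 50.5, 55.1 and 58.3 FPKM in EMBRYO CNT and 11.06, 11.2, 11.6 and 10.9 FPKM in L4 CNT (2.15 without TM and -1.59 with it), and nspe-7 (1.77 and -1.74), of a nematode-specific peptide family whose copies can share reads.

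**Figure D5:**
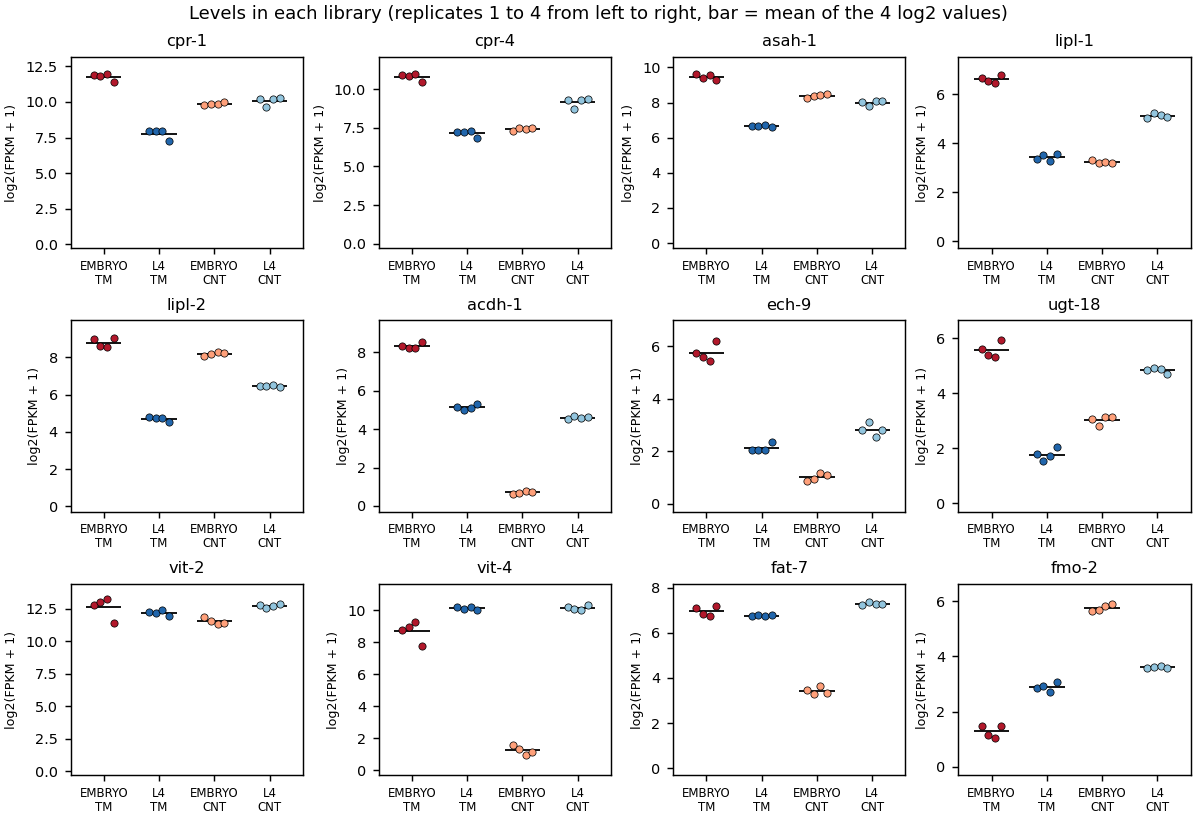
Level of 12 genes in each library as log2(FPKM + 1) (vertical axis), with replicates 1 to 4 from left to right in EMBRYO TM, L4 TM, EMBRYO CNT and L4 CNT and the mean of each group as a bar. In acdh-1, lipl-1, cpr-4, ech-9 and ugt-18 EMBRYO TM lay above L4 TM while EMBRYO CNT lay below L4 CNT, and fmo-2 showed the opposite order.

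A set of 6 genes had also been assayed by quantitative PCR. Of these, cpr-1 (3.999) and asah-1 (2.80) were called between the treated groups. The stage difference without TM was -0.21 in cpr-1 and 0.40 in asah-1, and neither passed both thresholds. The other 4 lay within the fold threshold between the treated groups, at 0.48 in acox-1.5, -0.09 in vha-6, -0.33 in fat-5 and -0.76 in elo-2, but were lower in EMBRYO CNT than in L4 CNT, with log2FCs of -4.35, -1.74, -3.16 and -2.29. In all 6 the difference between the 2 stage differences was positive past both thresholds, from 1.53 in elo-2 to 4.83 in acox-1.5.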

How the data were processed

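The deposited table holds FPKM per gene and library that the authors made from reads of polyadenylated RNA with HISAT2 2.0.5 and featureCounts 1.5.0-p3 (StringTie 1.3.3b, edgeR 3.22.5 and DESeq2 are also named in their processing notes). The genome build and library strandedness are not given in the sources used here, so overlapping and antisense genes cannot be told apart, and positions are as deposited. The authors' mean columns were not used, and 0 per-sample columns lacked a mapped sample. All values came out as whole multiples of the smallest step of their library, taken as 1 read, within 0.01. Of 46589 genes, 46183 were named from the WBcel235 annotation, and 1312 that share a symbol kept their ID. Values were tested as log2(FPKM + 1) with limma 3.58.1 (R 4.3.3), moderated with trend, on genes with a mean of at least 1 FPKM in the libraries compared, with Benjamini-Hochberg adjustment and thresholds of 1 (log2) and 0.05. Replicates are separate plates, so p-values measure the spread between these samples. The methods of the study do not say whether the plates of a group shared the same exposure and synchronisation. If they did, the p-values leave out the spread between exposures. Counting intervals cover counting error alone. These intervals and the read ratios of col-36, grl-23, grl-9 and spp-21 rest on the recovered depth of L4 TM, which is uncertain for replicate 4. The procedure was tested on simulated data. Tables and figures used Python 3.11.15, pandas 2.3.3 and matplotlib 3.10.9. Named genes were the 10 largest protein-coding, non-overlapping differences in each direction, up to 4 leading and 3 contrary members of each of 53 lists, every tested gene of lists with no more than 10, the timing genes, col-19 and the 6 genes measured by quantitative PCR. Comparison, members and lists were chosen with earlier results of these data known. Alternatives changed the pseudocount, filter, scaling, block, model, gene class, threshold or libraries.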

Additional observations from a re-analysis of the deposited data

Results flagged for a closer look

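L4 TM replicate 4 lay far from the other 3 libraries of its group in 47193068 reads on genes as recovered, in 0.702% of detected genes with a single read and in 15377 detected genes. In the genes and sums given by library, a single library lay far from the other 3 of its group in these cases. L4 TM replicate 4 was lowest in hmit-1.1 (41.6 FPKM), col-19 (248 FPKM), unc-54 (46.2 FPKM), cpr-1 (149 FPKM), cpr-4 (113 FPKM) and the summed col family (8667 FPKM), and highest in him-8 (93.3 FPKM), dad-1 (478 FPKM) and ech-9 (4.13 FPKM). EMBRYO TM replicate 4 was lowest in lin-14 (16.8 FPKM) and in the summed msp level (2361 FPKM), and L4 TM replicate 3 alone had a col-36 value above 0 (0.0521 FPKM). Over 239 named genes and 2 groups, 56 of 478 groups of 4 had such a library, of which 43 were L4 TM replicate 4 (lowest in 22 and highest in 21), 9 were EMBRYO TM replicate 4 and 4 were others. Chance gives about 1 in 20 for independent groups. The genes share the same libraries, so the 56 cannot be set against that rate. The cause was not tested, and the control groups were not examined in this way.

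The difference between the treated and the control stage contrast passed both thresholds with a positive value in 74 named genes and a negative value in 11. Each value is treated minus control on the log2 scale from limma. Over all genes tested, 6.5% were positive and 4.22% negative. Most named genes were chosen by their treated difference, which enters this value, so the 74 and 11 cannot be set against those shares. A positive value can also come from a lower level in L4 TM than in L4 CNT. In yolk genes it was 7.44 in vit-4, 6.48 in vit-3, 6.17 in vit-1, 3.04 in vit-6, 2.47 in vit-5, 1.66 in vit-2, 1.17 in pqm-1 and 1.14 in sgk-1. In sperm genes it was 1.85 in msp-77, 1.62 in msp-56, 1.54 in msp-10, 1.32 in msp-57 and 1.098 in spe-15. In collagen and moult genes it was 3.34 in col-7, 2.99 in col-62, 1.82 in dpy-13, 1.74 in dpy-4, 1.66 in sqt-3 and 1.03 in qua-1.

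In lysosomal genes the difference was 5.42 in cpr-4, 4.21 in cpr-1, 2.40 in asah-1, 1.53 in cpr-8, 1.23 in asm-3, 5.09 in lipl-1, 2.35 in lipl-2 and 1.998 in lipl-3, and it was -1.29 in cpr-2. In peroxisomal and mitochondrial fat oxidation it was 5.41 in ech-9, 4.83 in acox-1.5, 1.92 in daf-22, 1.67 in acs-2, 1.64 in prx-11, 1.05 in acox-1.3 and 1.03 in maoc-1. In the propionate shunt it was 7.09 in acdh-1 and 2.37 in hphd-1. In desaturases and elongases it was 4.05 in fat-7, 2.82 in fat-5, 1.32 in fat-2, 1.04 in fat-3, 2.35 in elo-6, 2.01 in elo-5 and 1.53 in elo-2. In lipid-binding proteins it was 2.47 in lbp-5, 1.82 in lbp-7 and 1.76 in lbp-6.

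In immunity genes the difference was 4.55 in clec-169, 3.53 in clec-47, 1.78 in clec-60, 1.16 in clec-222, 1.12 in clec-54, 4.45 in spp-2, 1.251 in spp-17, 3.21 in ilys-3 and 2.86 in lys-10, and the fitted 4.48 in spp-21 depends on the pseudocount because L4 TM had no read. In detoxification, metal and antioxidant genes it was 5.59 in ugt-18, 3.16 in msra-1, 2.13 in mtl-2, 1.65 in cyp-34A9, 1.64 in ugt-22, 1.47 in cyp-13A5, 1.37 in gst-28, 1.27 in gstk-1 and 1.01 in ugt-52. In intestinal, insulin-linked and transport genes it was 3.86 in pud-4, 3.07 in pho-1, 2.72 in aqp-1, 2.07 in dod-3, 1.74 in K11D12.13, 1.69 in dod-23, 1.65 in vha-6, 1.15 in nhr-99 and 1.081 in hmit-1.2.

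Beside cpr-2, the named genes with a negative difference were fmo-2 (-3.74), nspe-7 (-3.52), sod-3 (-2.38), gst-35 (-2.24), hsp-12.6 (-2.13), gst-15 (-2.103), gpdh-1 (-1.84), hsp-12.3 (-1.66), pgph-2 (-1.596) and myo-3 (-1.497).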

How the results depend on the processing

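Between EMBRYO TM and L4 TM, the counts were 4757 higher and 4962 lower by the adjusted p alone, 1060 and 582 with a pseudocount of 5, 1321 and 1017 at a mean FPKM of at least 5, and 697 lower with TPM. Between the controls they were 6137 and 5699, 1395 and 1225, 1649 and 1849, and 1334 lower with TPM, where voom gave 1363 lower. For the difference between the contrasts they were 2056 and 1996, 515 and 237, and 277 lower at a mean FPKM of at least 5 (705 higher). Leaving out 1 library gave 2803 to 2985 higher and 936 to 1419 lower between the treated groups, 3610 to 3844 and 1995 to 2124 between the controls, and 877 to 928 and 515 to 634 for the difference. Without replicate 4 of both TM groups, chosen after seeing the data, they were 2997 and 1390, and 906 and 652. The median over all control genes moved by 0.17 with TPM, 0.24 with voom and -0.13 with median-ratio rescaling.

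Of 197 named genes called between the treated groups, 46 lost the call with a pseudocount of 5, 17 with TPM (vit-1, cpg-3, gld-3, cgh-1, spn-4, flp-6, algn-6, ubl-5, hsp-90, gss-1, gst-28, maoc-1, daf-22, elo-6, lid-1, lbp-9 and acdh-3), 10 with voom, 1 with median-ratio rescaling and 3 to 13 without 1 library, and none changed direction. Fitting the replicate block gave 2931 and 1097 treated calls, 3744 and 2064 control calls and 896 and 582 for the difference, and ended no named call. Samples of the same number had correlations of deviations of 0.01, 0.01, 0.07 and 0.11, and not every sample correlated best with its own number, so the numbers were not taken as pairs. Only cpr-2 reversed a call, where the difference between the contrasts was 1.37 with voom against -1.29, and the cause was not tested. Median log2 fold changes of lists changed sign for spe and fer genes (-0.49), metal and heme genes (0.21) and glyoxylate genes (-0.05) at a mean FPKM of at least 5, and for antioxidants with TPM (0.09). No early zygotic gene was left at that filter. Depth limits genes near 1 FPKM, where the pseudocount of 1 shrinks fold changes.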

Other observations

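Other genes called in opposite directions with and without TM, chosen after their values were seen, extended the metabolic and immune groups. The saposin-like genes spp-4 (2.2 with TM and -2.37 without) and spp-23 (1.4 and -2.81), the aspartyl protease gene asp-12 (2.66 and -1.49), the nuclear receptor gene nhr-168 (1.93 and -1.78) and pud-3 (1.55 and -3.28) were higher in EMBRYO TM than in L4 TM and lower in EMBRYO CNT than in L4 CNT.

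Across all genes, Pearson correlations of log2(FPKM + 1) between single libraries were 0.865 to 0.924 for EMBRYO TM with L4 CNT, 0.900 to 0.923 for EMBRYO CNT with EMBRYO TM, 0.952 to 0.980 for L4 CNT with L4 TM and 0.830 to 0.856 for EMBRYO CNT with L4 CNT, as a description over genes that are not independent replicates. The neuropeptide processing sum was 1223 to 1330.1 FPKM in EMBRYO CNT and 381 to 431 FPKM in L4 CNT, and the body wall muscle sum was 8232 to 8722 and 3679 to 4681 FPKM, so that EMBRYO TM lay below EMBRYO CNT in both sums without overlap. The early zygotic sum was 22.2 to 28.3 FPKM in EMBRYO CNT and 7.48 to 9.27 FPKM in L4 CNT.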
